A study of Homo sapiens with 2 samples.

Results

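The collagen genes are the human genes whose symbol begins with COL, followed by a number, A and a second number, and which have at least 1 curated protein-coding transcript record in the deposited tables. This rule found 44 collagen genes among 26370 gene names. They were measured by RNA sequencing of CHME3, an immortalised cell line derived from human microglia, the resident macrophages of the brain. One library came from cells that received 5 µg/ml of drug, labelled as muscarinic receptor antagonists at their EC50, and 1 library from untreated cells. Both were made at passages 4 to 6, from total RNA of the same line. The labels name neither the compounds nor the length of the treatment, and the comparison asks how the transcripts of these cells differ with the drug.

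Collagens are extracellular proteins built from 3 chains wound into a triple helix, and each chain has its own gene. Fibrillar collagens form the cable-like fibrils of connective tissue, basement membrane collagens form the sheet-like network under epithelia and around vessels, and the remaining classes bind fibrils, anchor membranes or form filaments. Chains of a type are secreted only after they have assembled in the endoplasmic reticulum, so the relative level of partner chains bears on which trimers a cell can make. In brain, collagens are known mainly from the vessel wall and the meninges.

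The regions between or before the starts of selected collagen genes are shown because 3 pairs of type IV genes sit head to head and because COL18A1 is read from 2 start sites that differed widely in level. Sequences are from RefSeq on build GRCh38.p14, given on the plus strand, and 32 of the 44 genes had an entry in the table used. Capitals mark matches, on either strand, to CCAAT, to GGGCGG or to TATAAA, and no match to a motif overlaps a match to another motif. The first lies between the starts of COL4A1 and COL4A2 at chr13:110307158-110307283, the second before COL4A5 at chrX:108439588-108439837, the third before the upstream start of COL18A1 at chr21:45404915-45405136 and the last before its downstream start at chr21:45455272-45455509.
COL4A1-COL4A2: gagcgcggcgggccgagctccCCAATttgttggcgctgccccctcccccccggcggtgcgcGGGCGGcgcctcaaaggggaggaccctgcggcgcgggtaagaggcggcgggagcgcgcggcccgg
COL4A5 upstream: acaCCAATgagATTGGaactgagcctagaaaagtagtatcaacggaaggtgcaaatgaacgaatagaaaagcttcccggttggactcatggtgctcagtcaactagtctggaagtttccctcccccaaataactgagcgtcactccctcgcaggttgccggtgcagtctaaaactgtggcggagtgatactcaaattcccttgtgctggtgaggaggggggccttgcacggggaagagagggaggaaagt
COL18A1 start 1: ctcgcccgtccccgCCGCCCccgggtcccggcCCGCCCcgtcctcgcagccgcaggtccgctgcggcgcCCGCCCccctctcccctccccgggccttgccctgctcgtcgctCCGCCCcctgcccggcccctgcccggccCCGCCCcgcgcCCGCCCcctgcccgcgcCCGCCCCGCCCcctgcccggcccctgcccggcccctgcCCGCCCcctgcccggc
COL18A1 start 2: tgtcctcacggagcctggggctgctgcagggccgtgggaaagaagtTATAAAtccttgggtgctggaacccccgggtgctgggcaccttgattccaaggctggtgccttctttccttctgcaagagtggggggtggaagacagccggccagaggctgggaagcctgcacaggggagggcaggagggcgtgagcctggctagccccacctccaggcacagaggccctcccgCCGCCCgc

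The 126 bases between COL4A1 and COL4A2 were 80.2% G or C and held 20 CpG sites, 1 CCAAT match and 1 GGGCGG match. Over the same length before the start, 21.1% of 35116 RefSeq promoters held CCAAT and 34.6% held GGGCGG. The 250 bases before COL4A5 were 51.2% G or C, with 8 CpG sites and 2 CCAAT matches that face opposite strands, a motif held by 32.0% of promoters at that length. The 222 bases before the upstream start of COL18A1 were 88.7% G or C and held 32 CpG sites and 9 matches to GGGCGG, some sharing letters, where 41.4% of promoters held at least 1. The 238 bases before its downstream start held 1 GGGCGG match and 1 TATAAA match, a motif found in 10.2% of promoters at that length. A match is a string of letters and says nothing about binding.

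Levels are FPKM, fragments scaled for transcript length and for library depth, summed over the transcript records of a gene. The libraries held an estimated 7295997 fragments from treated and 6803980 from untreated cells, and 11652 genes in treated and 11637 in untreated cells reached 1 FPKM. RNA18S5, the ribosomal 18S transcript, was listed at 759 FPKM in treated and 363 FPKM in untreated cells. Against the label, only 3 of 20 microglial markers passed the floor and 11 were listed at 0 in both libraries, their sum being 71.5 FPKM in treated and 79.8 FPKM in untreated cells. Of 14 fibroblast and mesenchymal markers 8 passed the floor, VIM at 2025 FPKM in treated and 1967 FPKM in untreated cells the highest, and 5 were listed at 0 in both. Of these 8, 4 were higher and 4 lower in treated cells, with a median log2 ratio of 0.00. Their sum was 2710 FPKM in treated and 2553 FPKM in untreated cells, and nearly all of that difference lay in VIM and in TAGLN, which had 498 FPKM in treated and 397 FPKM in untreated cells. The part of these markers in the results was not tested. Of other cell types 0 of 7 endothelial, 3 of 6 epithelial, 2 of 7 astrocyte and 1 of 6 neuronal markers passed the floor, at sums of 0.435, 278, 36.5 and 30.5 FPKM in treated cells and 0.887, 257, 32.7 and 30.1 FPKM in untreated cells.

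Of the 44 collagen genes, 16 passed the floor of a mean of 1 FPKM over both libraries, 14 lay under the floor but above 0 in at least 1 library, and 14 were listed at 0 in both. Collagen genes together summed to 1156 FPKM in treated cells and 1072 FPKM in untreated cells, or 0.638% and 0.593% of all estimated fragments in treated and untreated cells, and the ratio of the sums was 1.08 (1.06 to 1.09). In bulk RNA, fewer cells of a type and less RNA per cell cannot be told apart. COL1A1 alone was 47.1% of the collagen sum in treated cells and 46.6% in untreated cells. With 1 library per condition there is no replicate error, so no test was made. Each ratio carries a 95% counting interval, which covers sampling of fragments only and compares these 2 libraries, not the conditions.

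**Figure D1:**
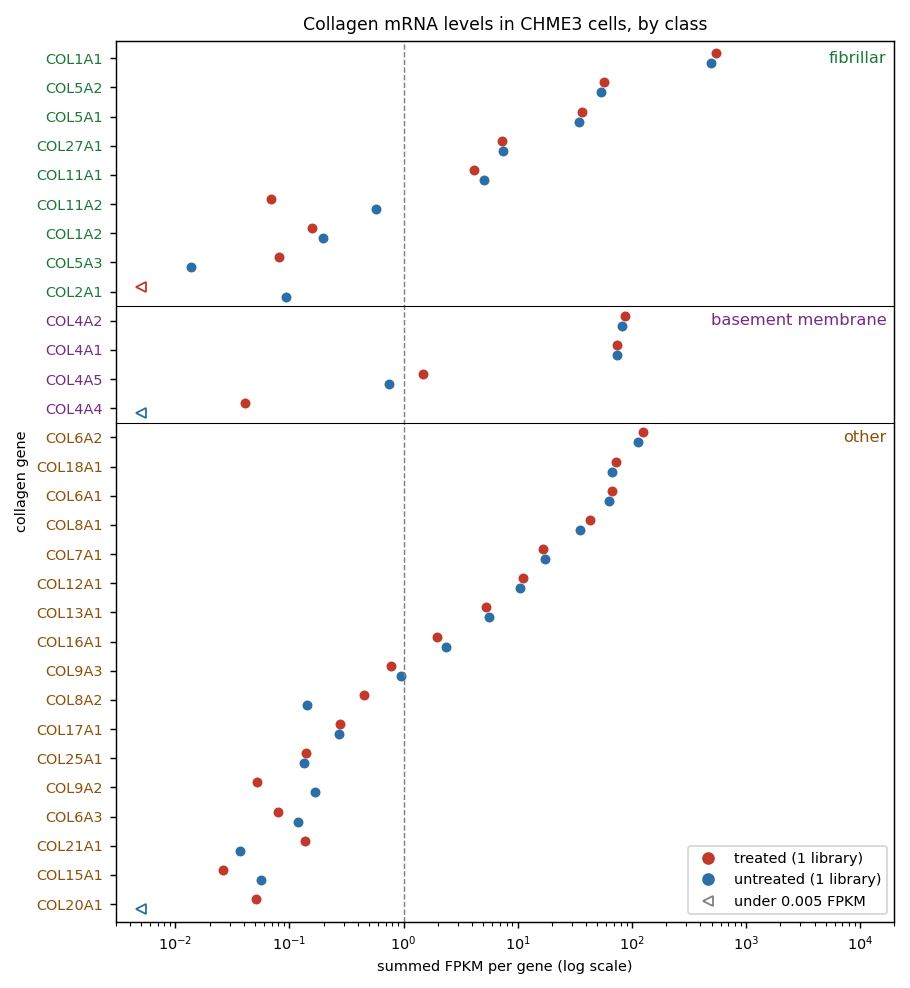
Level of each collagen gene listed above 0 in at least 1 library, as summed FPKM on a log scale, in treated (red) and untreated (blue) cells, 1 library each. Genes are grouped by class and ordered by mean level, the dashed line marks 1 FPKM, and open triangles mark values under 0.005 FPKM. COL1A1 stands highest, at 545 FPKM in treated and 499 FPKM in untreated cells.

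No collagen gene over the floor differed by 1.5-fold in either direction, on the log2 scale after adding 1 FPKM, a scale that understates the change of low genes. Among all 11668 genes over the floor, 1.2% were at least that much higher and 1.03% at least that much lower in treated cells. Small differences leaned 1 way. The counting interval lay above 1 for 8 of the 16 collagen genes, against 6.75% of all genes, and below 1 for 0 of 16, against 6.33% of all genes. COL4A5 is among the 8 and passed the floor only through treated cells, at 1.47 FPKM in treated and 0.741 FPKM in untreated cells. With a floor of 5 FPKM, which 13 collagen genes passed, 7 intervals lay above 1. Of the 16, 11 were higher and 5 lower in treated cells, where 50.7% of all genes were higher. Depth sets how narrow an interval can be, and among genes with at least 500 fragments over both libraries the interval lay above 1 for 7 of 12 collagen genes, against 8.09% of such genes. In the same depth range it lay below 1 for 0 of 12 collagen genes, against 9.37%, and 10 of 12 were higher, against 47.8%. None of the 12 reached 1.5-fold, a size met by 0.132% of such genes in the higher and 0.0189% in the lower direction. The median log2 ratio of the 16 collagen genes was 0.09, with a range of -0.22 to 0.50, whose upper end is COL4A5. That of all genes over the floor was 0.00, with quartiles of -0.10 and 0.11.

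**Figure D2:**
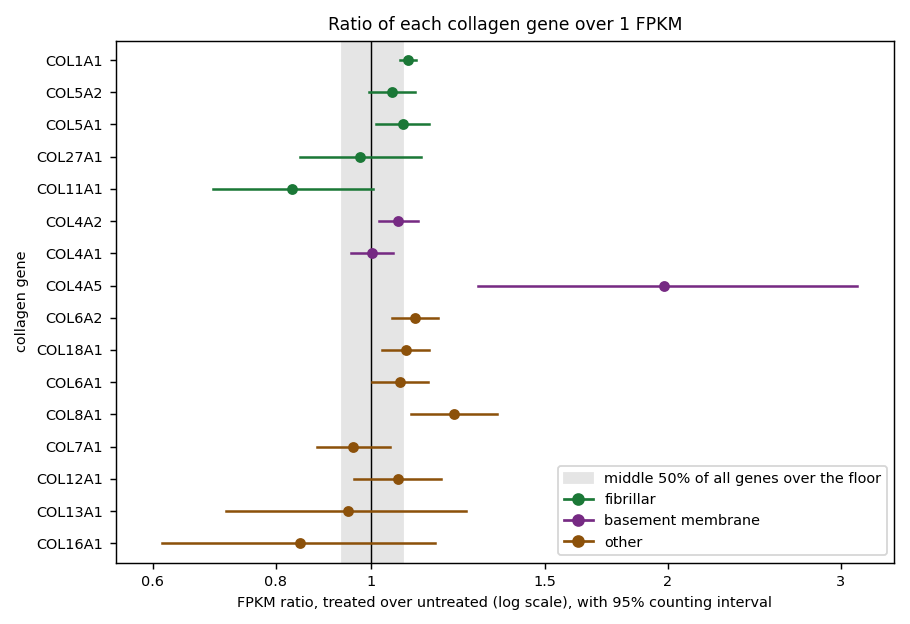
Ratio of FPKM in treated over untreated cells for each of the 16 collagen genes over the floor, on a log axis, with the 95% counting interval as a bar and colours for the classes. The grey band holds the middle 50% of all genes over the floor after adding 1 FPKM to each value. The points are ratios with nothing added, and adding 1 FPKM draws low genes towards 1. Intervals of 8 genes lie above 1, that of COL4A5 is the widest, and none lies below 1. COL4A5 passed the floor only through its level in treated cells.

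The base composition of transcripts moved with the ratios. Deciles of GC content were taken over genes above the floor with a GC value and at least 500 fragments over both libraries. Across these deciles the median log2 ratio ran between -0.05 in the most AT-rich decile and 0.02 at its highest. The 16 collagen genes had a median GC content of 60.7%, ranging from 46.3 to 67.2%, and 11 of them were above 55%. After the median of its decile was subtracted from each gene, also from those with fewer fragments, the collagen median was 0.08. Then 7 intervals lay above 1. Without this step the median was 0.09 and 8 intervals lay above 1. This step was added after the data had been seen. The part of base composition in the results was not tested.

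Fibrillar collagens, 11 genes of which 5 passed the floor and 2 were listed at 0, summed to 650 FPKM in treated cells and 601 FPKM in untreated cells, a ratio of 1.08 (1.06 to 1.10). COL1A1 set most of that sum. Without it the fibrillar sum was 105 FPKM in treated and 102 FPKM in untreated cells, with a ratio of 1.04 (0.998 to 1.08), an interval that includes 1.

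COL1A1 (chr17:50184096-50201639, minus strand, hg38) encodes the alpha 1 chain of type I collagen, the main fibril collagen of bone, skin and tendon. It had 545 FPKM in treated cells and 499 FPKM in untreated cells, from an estimated 22825 and 19494 fragments in treated and untreated cells, and ranked 136th of all genes in treated and 141st in untreated cells. The ratio was 1.09 (1.07 to 1.11), and the authors' deposited FPKM bounds of its record were higher in treated cells and did not overlap. Its usual partner COL1A2 (chr7:94394561-94431232, plus strand), which supplies the alpha 2 chain, had 0.157 FPKM in treated and 0.196 FPKM in untreated cells, resting on 6 and 7 fragments in treated and untreated cells. Per length, COL1A1 exceeded COL1A2 by 3471-fold (1591 to 9436) in treated and by 2545-fold (1230 to 6304) in untreated cells. COL3A1, the type III chain that shares fibrils with type I in elastic tissues, was listed at 0 in both libraries.

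Type V collagen sits inside type I fibrils and helps to start them. COL5A2 (chr2:189031915-189179879) had 56.7 FPKM in treated and 54.0 FPKM in untreated cells, with a ratio of 1.05 (0.994 to 1.11). COL5A1 (chr9:134641805-134844842) had 36.9 FPKM in treated and 34.3 FPKM in untreated cells, with a ratio of 1.08 (1.01 to 1.15). With its most abundant record alone the ratio was 1.04, and the authors' deposited bounds of that record overlapped between the libraries. The ratio of COL5A2 to COL5A1 was 1.54 (1.45 to 1.62) in treated and 1.57 (1.48 to 1.67) in untreated cells, and these intervals overlap. Their relative COL5A3 lay at 0.0805 FPKM in treated and 0.0137 FPKM in untreated cells, under the floor in both.

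COL27A1, a fibrillar collagen known from cartilage, had 7.31 FPKM in treated and 7.50 FPKM in untreated cells, with a ratio of 0.975 (0.846 to 1.12). COL11A1 (chr1:102876467-103108496), a chain of type XI collagen that nucleates cartilage fibrils, had 4.18 FPKM in treated and 5.03 FPKM in untreated cells. Its ratio, 0.831 (0.690 to 1.004), was the lowest of the 16, on 217 fragments in treated and 243 in untreated cells. The counting interval of the gene includes 1. In treated cells part of its FPKM was assigned to lesser records, described below, that were near 0 in untreated cells. The authors' deposited bounds of its most abundant record, which leave out the lesser records, did not overlap and were lower in treated cells. Non-overlap of these bounds was met in the treated-lower direction by 3.7% of the most abundant records of all genes over the floor and by 1 of the 16 collagen genes. In the treated-higher direction it was met by 3.93% of all genes and by 2 of the 16, COL1A1 and COL4A5. The partner COL11A2 had 0.0693 FPKM in treated and 0.575 FPKM in untreated cells, on 3 and 11 fragments in treated and untreated cells. Of the 28 records of COL11A2, 24 lie on alternate haplotype copies of chromosome 6 that can split reads, so its level is uncertain.

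Basement membrane collagens, 6 genes of which 3 passed the floor and 2 were listed at 0, summed to 162 FPKM in treated cells and 156 FPKM in untreated cells, a ratio of 1.04 (1.01 to 1.08). Without COL4A2 the ratio of this class was 1.01. COL4A1 and COL4A2 encode the chains of the type IV trimer found in nearly all basement membranes. COL4A2 (chr13:110307284-110513026, plus strand) had 86.8 FPKM in treated and 81.4 FPKM in untreated cells, with a ratio of 1.07 (1.02 to 1.12). COL4A1 (chr13:110148958-110307157, minus strand) had 73.9 FPKM in treated and 73.7 FPKM in untreated cells, with a ratio of 1.002 (0.955 to 1.05). The pair that shares the 126-base stretch shown above was therefore within 1.17-fold (1.12 to 1.23) of each other per length in treated cells and within 1.10-fold (1.05 to 1.16) in untreated cells, COL4A2 being the higher in both. The usual trimer has COL4A1 and COL4A2 chains in unequal number, and mRNA levels do not give the number of chains made.

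The other type IV pairs were low. COL4A5 (chrX:108439844-108697545, plus strand), a chain of the glomerular and other specialised basement membranes, had 1.47 FPKM in treated and 0.741 FPKM in untreated cells. It had the highest ratio of the 16, 1.98 (1.28 to 3.12), but this rests on 68 fragments in treated and 32 in untreated cells, and its log2 difference after adding 1 FPKM was 0.50, under the 1.5-fold rule, which it met with 0.1 FPKM added instead. The authors' deposited bounds of its main record were higher in treated cells and did not overlap. COL4A6 (chrX:108155607-108439497, minus strand), which begins 346 bases away on the opposite strand, was listed at 0 in both libraries. COL4A4 and COL4A3 on chromosome 2 face each other with 5 bases between their starts. COL4A4 had 0.0412 FPKM in treated and 0.00131 FPKM in untreated cells, and COL4A3 was listed at 0 in both. COL4A1 exceeded COL4A5 by 50.2-fold (39.4 to 64.7) in treated cells and by 99.4-fold (70.0 to 145) in untreated cells.

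The remaining 27 genes, of which 8 passed the floor and 10 were listed at 0, summed to 344 FPKM in treated cells and 315 FPKM in untreated cells, a ratio of 1.09 (1.06 to 1.12). Type VI collagen, which forms beaded microfilaments around cells, made up 192 FPKM of this in treated and 175 FPKM in untreated cells. COL6A2 (chr21:46098119-46132849) had 124 FPKM in treated and 112 FPKM in untreated cells, with a ratio of 1.11 (1.05 to 1.17). COL6A1 (chr21:45981749-46005049), which lies 93069 bases upstream on the same strand, had 67.0 FPKM in treated and 62.7 FPKM in untreated cells, with a ratio of 1.07 (1.003 to 1.14). COL6A2 was 1.86-fold (1.75 to 1.97) higher than COL6A1 per length in treated and 1.79-fold (1.69 to 1.91) in untreated cells. COL6A3, the remaining chain of the usual trimer, had 0.0797 FPKM in treated and 0.120 FPKM in untreated cells, on 5 and 7 fragments in treated and untreated cells. COL6A1 thus exceeded COL6A3 by 841-fold (359 to 2587) in treated and 524-fold (253 to 1300.0) in untreated cells, and COL6A5 and COL6A6, which can take the place of COL6A3 in some tissues, were listed at 0 in both.

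COL18A1 (chr21:45405137-45513720), a multiplexin of basement membranes whose cleaved end is endostatin, had 72.6 FPKM in treated and 66.9 FPKM in untreated cells, with a ratio of 1.08 (1.03 to 1.15). COL8A1 (chr3:99638596-99796733), a short-chain collagen of vessel walls and of the corneal endothelium, had 42.8 FPKM in treated and 35.2 FPKM in untreated cells, on 891 and 683 fragments in treated and untreated cells. Its ratio of 1.21 (1.10 to 1.34) was the highest of the 12 collagen genes with at least 500 fragments. COL8A2, its partner chain, had 0.455 FPKM in treated and 0.142 FPKM in untreated cells, on 14 and 4 fragments in treated and untreated cells, a ratio of 3.20 (1.02 to 13.6) under the floor. COL8A1 exceeded COL8A2 by 94.0-fold (55.6 to 172) in treated and 247-fold (97.9 to 927) in untreated cells.

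COL7A1, which forms the anchoring fibrils of skin, had 16.7 FPKM in treated and 17.4 FPKM in untreated cells, with a ratio of 0.959 (0.881 to 1.04). COL12A1, which binds to the surface of type I fibrils, had 11.2 FPKM in treated and 10.5 FPKM in untreated cells, with a ratio of 1.06 (0.960 to 1.18). COL13A1, a transmembrane collagen of cell adhesion sites, had 5.32 FPKM in treated and 5.62 FPKM in untreated cells, with a ratio of 0.946 (0.712 to 1.25). The intervals of these genes all include 1. COL16A1, another fibril-associated collagen, lay near the floor at 1.97 FPKM in treated and 2.33 FPKM in untreated cells, with a ratio of 0.846 (0.614 to 1.16).

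The 14 genes under the floor but above 0 ranged from 0 to 0.772 FPKM in treated cells and from 0 to 0.957 FPKM in untreated cells, on at most 14 fragments in treated and 15 in untreated cells. COL9A3, a fibril-associated collagen of cartilage, was the highest at 0.772 FPKM in treated and 0.957 FPKM in untreated cells, just under the floor, and COL4A5 at a mean of 1.11 FPKM was the member just above it. COL17A1, the transmembrane collagen of hemidesmosomes, had 0.277 FPKM in treated and 0.270 FPKM in untreated cells. The others were COL11A2, COL8A2, COL1A2, COL25A1, COL9A2, COL6A3, COL21A1, COL5A3, COL2A1, COL15A1, COL20A1 and COL4A4. At these counts no difference could be resolved. The interval of COL8A2 lay above 1 and that of COL11A2 below 1, but the authors' deposited bounds of their most abundant records overlapped. The alternate haplotype copies of COL11A2 make its interval uncertain as well. No share of such intervals over all genes under the floor is given for comparison. The 14 genes listed at 0 in both libraries were COL3A1, COL24A1, COL4A3, COL4A6, COL6A5, COL6A6, COL9A1, COL10A1, COL14A1, COL19A1, COL22A1, COL23A1, COL26A1 and COL28A1. A count of 0 allows up to 3 fragments, which for these genes is 0.0455 to 0.144 FPKM in treated cells and 0.0488 to 0.155 FPKM in untreated cells.

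Neighbouring collagen genes did not always share their state. COL3A1 and COL5A2 lie tail to tail on chromosome 2 with 19168 bases between their ends, and COL3A1 was listed at 0 in both libraries while COL5A2 had 56.7 FPKM in treated and 54.0 FPKM in untreated cells. COL6A5 and COL6A6, and COL19A1 and COL9A1, are neighbouring pairs in which both members were listed at 0 in both libraries. Exons of COL4A2, COL5A1 and COL7A1 overlap another gene on the opposite strand over 1.29, 1.10 and 0.393% of their length. No strand setting is given in the sources used here, so reads in those short stretches cannot be assigned to 1 gene.

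Most collagen genes at 5 FPKM or more with several transcript records were read mainly as 1 record. The authors' deposited bounds on records were apart, treated higher, for 6.79% and, treated lower, for 6.57% of all 16888 records with a mean of at least 1 FPKM. COL18A1 had 98.9% of its FPKM in treated and 98.7% in untreated cells in a record of 5427 bases and 43 exons from the upstream start at 45405137, whose GGGCGG-rich flank is shown above. The records from the downstream start at 45455510 made up the rest. COL6A2 had 85.0% in treated and 83.7% in untreated cells in its 3439-base record, and COL8A1 had 84.7% in treated and 87.0% in untreated cells in its 3029-base record. COL4A1 had its FPKM in a 52-exon record, and a 25-exon record of it was at 0.00 FPKM in treated and 0.650 FPKM in untreated cells, with the authors' deposited bounds apart and lower in treated cells.

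Among collagen genes over the floor, the widest shift of shares was in COL11A1, which lies under 5 FPKM and whose records were added here after their values had been seen. Its main record of 7291 bases held 88.1% in treated and 99.99% in untreated cells. A record that lacks 117 of those bases had 0.332 FPKM in treated and 0.00027 FPKM in untreated cells, an estimated 17 and 0 fragments in treated and untreated cells, and the authors' deposited bounds of it did not overlap. COL5A1 has 2 records of 8439 bases that differ by 69 bases each. Its lesser record had 2.80 FPKM in treated and 1.41 FPKM in untreated cells, or 7.59% and 4.10% of the gene in treated and untreated cells, and the authors' deposited bounds of it did not overlap. The long record of COL12A1, with 11579 bases and 66 exons, held 62.6% in treated and 54.1% in untreated cells. Its short record, which lacks 3492 bases of the long one, held 37.4% in treated and 45.9% in untreated cells, and the bounds of both records overlapped between the libraries. COL13A1 was spread over several records, the largest holding 42.2% in treated and 48.9% in untreated cells. Shares between records that differ by few bases rest on the few reads that cover those bases.

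**Figure D3:**
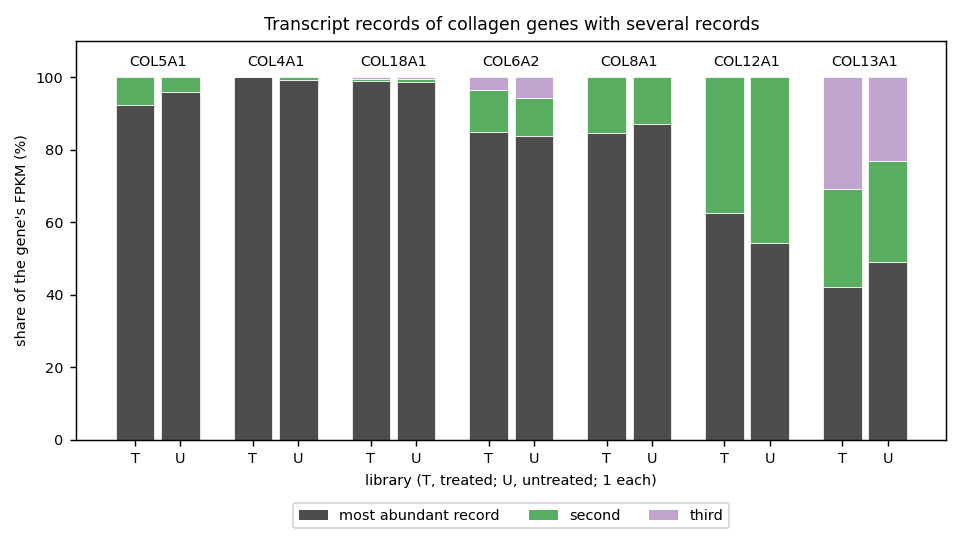
Share of each gene's FPKM held by its 3 most abundant transcript records, as a percentage, in treated (T) and untreated (U) cells, 1 library each, for collagen genes at 5 FPKM or more with several records. Dark, green and violet mark the records in order of falling mean level. COL18A1 and COL4A1 were read almost wholly as 1 record, and the long record of COL12A1 held 62.6% in treated and 54.1% in untreated cells.

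Genes that build, export, crosslink and bind collagens were described as 9 lists, and 0 members of any list over the floor differed by 1.5-fold. The shares of all genes given above, 6.75% with an interval above 1 and 6.33% with one below, are the background for each list. Among genes with at least 500 fragments over both libraries, as many list members have, these shares were 8.09% and 9.37%. Of 15 genes of hydroxylation and glycosylation, 13 passed the floor and 12 of these were higher and 1 lower in treated cells, with 4 intervals above and 1 below 1 and a median log2 ratio of 0.05. P4HB, the shared subunit of prolyl 4-hydroxylase, had 418 FPKM in treated and 402 FPKM in untreated cells, with a ratio of 1.04 (1.005 to 1.07). PPIB, a prolyl isomerase of the endoplasmic reticulum, had 417 FPKM in treated and 380.1 FPKM in untreated cells, with a ratio of 1.10 (1.03 to 1.16). PLOD3, a lysyl hydroxylase that also adds glucose, had 32.1 FPKM in treated and 26.8 FPKM in untreated cells, with a ratio of 1.20 (1.07 to 1.35). P3H2, a prolyl 3-hydroxylase, had 13.5 FPKM in treated and 10.7 FPKM in untreated cells, with a ratio of 1.27 (1.07 to 1.498).

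Of 16 genes of folding and export, 15 passed the floor, 5 were higher and 10 lower in treated cells, and 0 intervals lay above and 2 below 1. Their median log2 ratio of -0.02 changed sign with the processing, to 0.0024 after GC decile medians were subtracted and to 0.083 with estimated fragments not scaled for depth. CALR, a chaperone, had 609 FPKM in treated and 599 FPKM in untreated cells, with a ratio of 1.02 (0.984 to 1.05). HSPA5, the chaperone BiP, had 216 FPKM in treated and 227 FPKM in untreated cells, with a ratio of 0.954 (0.920 to 0.989). TMEM38B, an ion channel of the endoplasmic reticulum, had 5.86 FPKM in treated and 7.69 FPKM in untreated cells, with a ratio of 0.762 (0.610 to 0.960), and FKBP14, a prolyl isomerase, had a ratio of 0.910 (0.776 to 1.06). Of 11 genes of propeptide cleavage, 6 passed the floor, 2 were higher and 4 lower, and 1 interval lay on each side, with a median log2 ratio of -0.05 (0.05 without depth scaling). BMP1, which removes the C-propeptide, had 15.3 FPKM in treated and 12.3 FPKM in untreated cells, with a ratio of 1.24 (1.05 to 1.45). ADAMTS2, which removes the N-propeptide, had 12.2 FPKM in treated and 15.0 FPKM in untreated cells, with a ratio of 0.816 (0.680 to 0.977), and FURIN, a convertase, had a ratio of 0.965 (0.869 to 1.07).

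All 7 crosslinking genes passed the floor, 5 higher and 2 lower in treated cells, with 2 intervals above and 1 below 1 and a median log2 ratio of 0.10. LOXL2, a lysyl oxidase, had 212 FPKM in treated and 198 FPKM in untreated cells, with a ratio of 1.07 (1.03 to 1.11), and LOXL1 had a ratio of 1.03 (0.921 to 1.15). PXDN, which forms the sulfilimine bonds of type IV collagen, had 28.4 FPKM in treated and 25.6 FPKM in untreated cells, with a ratio of 1.11 (1.03 to 1.20), while the transglutaminase TGM2 had 20.8 FPKM in treated and 25.2 FPKM in untreated cells, with a ratio of 0.826 (0.734 to 0.929). Of 10 receptors, 5 passed the floor, 3 higher and 2 lower, with 1 interval above and 0 below 1 and a median log2 ratio of 0.05 (-0.07 with the most abundant transcript of each gene). ITGB1, the beta chain of the collagen-binding integrins, had 427 FPKM in treated and 413 FPKM in untreated cells, with a ratio of 1.03 (1.01 to 1.06). The endocytic receptor MRC2 had a ratio of 1.06 (0.982 to 1.14) and the kinase DDR1 a ratio of 0.930 (0.832 to 1.04). Of 17 genes of degradation and its inhibitors, 9 passed the floor, 4 higher and 5 lower, with 1 interval on each side and a median log2 ratio of -0.00, a value whose sign changed under 4 alternatives. The inhibitor TIMP1 had 151 FPKM in treated and 128 FPKM in untreated cells, with a ratio of 1.18 (1.06 to 1.31), and TIMP2 had 77.2 FPKM in treated and 84.5 FPKM in untreated cells, with a ratio of 0.914 (0.858 to 0.973).

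Of 16 fibril partners, 6 passed the floor, 5 higher and 1 lower in treated cells, with 4 intervals above and 0 below 1, a median log2 ratio of 0.09, and 8 listed at 0 in both. FN1, fibronectin, on which fibrils assemble, had 3021 FPKM in treated and 2725 FPKM in untreated cells, with a ratio of 1.11 (1.10 to 1.12). THBS2 had a ratio of 1.10 (1.02 to 1.18), and SPARC, a collagen-binding glycoprotein, had 339 FPKM in treated and 341 FPKM in untreated cells, with a ratio of 0.993 (0.963 to 1.02). Of 15 basement membrane partners, 10 passed the floor, 7 higher and 3 lower, with 3 intervals above and 1 below 1 and a median log2 ratio of 0.01. The proteoglycans AGRN and HSPG2 had ratios of 1.14 (1.09 to 1.19) and 1.11 (1.05 to 1.19), and LAMB1, a laminin chain, had 112 FPKM in treated and 121 FPKM in untreated cells, with a ratio of 0.926 (0.889 to 0.965). Of 16 genes of TGF-beta signalling, which drives collagen transcription in many cells, 14 passed the floor, 5 higher and 9 lower, with 2 intervals above and 3 below 1 and a median log2 ratio of -0.07 (0.02 without depth scaling). The target CTGF had a ratio of 0.943 (0.894 to 0.994), the ligand TGFB1 a ratio of 0.905 (0.820 to 0.998) and the transducer SMAD3 a ratio of 0.904 (0.816 to 0.9997).

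**Figure D4:**
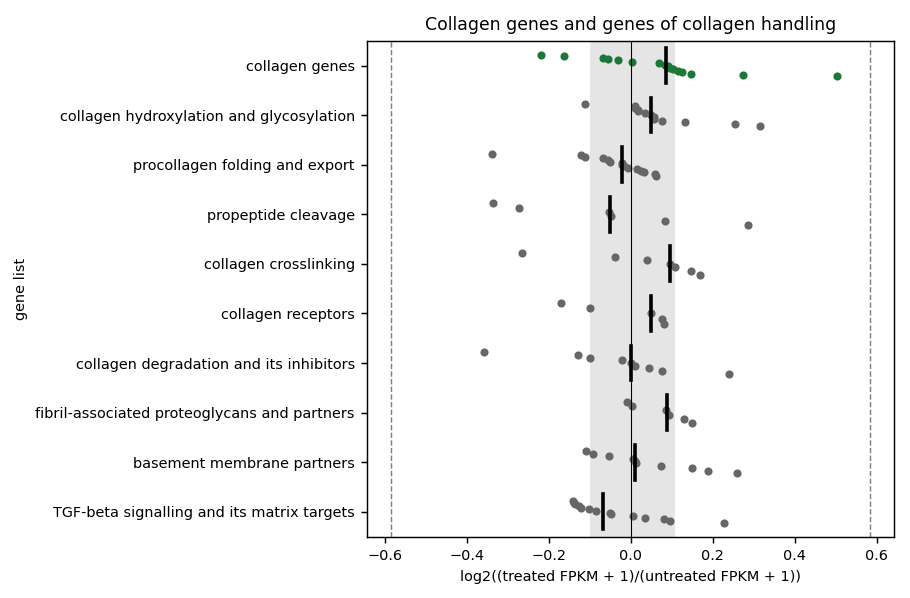
Log2 ratio of treated over untreated cells, after adding 1 FPKM to each value, for the members over the floor of the collagen genes and of the 9 lists of genes that process, crosslink, bind or regulate collagens. Each point is a gene and bars mark medians, which run from -0.07 for TGF-beta signalling (0.02 without depth scaling) to 0.10 for crosslinking, with 0.09 for the collagen genes.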

How the data were processed

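RNA from 1 treated and 1 untreated culture of CHME3 cells was sequenced. Per the submitters' processing notes the tools were TopHat and Cuffdiff and the build hg38, and the tables name Cufflinks as their source. Versions and strand settings are not given in the sources used here. The authors deposited FPKM with lower and upper bounds for 56891 transcript records per library, inside an attribute text. FPKM was summed per gene name, with a floor of a mean of 1 FPKM and a pseudocount of 1 FPKM for log2 ratios. Depth and fragments were estimated from the deposited FPKM, bounds and transcript lengths, not counted. Of genes with a single record, 21.3% in the treated and 21.1% in the untreated library came out within 0.01 of a whole number, so no count test was run. Intervals are 95% exact conditional binomial intervals on estimated fragments and cover counting error only. The counting interval and the 1.5-fold rule were tested on simulated whole counts. The estimation of depth and fragments from FPKM and bounds was not simulated. Named genes are all collagen genes over the floor and, per list, the 2 highest and 2 further kinds. These are the 2 members with the largest absolute log2 ratio at 5 FPKM or more, and any member over the floor that differed by 1.5-fold. Some genes that this rule names are not reported here. Collagen genes and lists were chosen with earlier results of these data known. Another pseudocount, floors, single transcripts, fragments, the authors' bounds, GC content and leaving out COL1A1, COL4A2 or COL6A2 from the sum of its class were tried. Python 3.11.15, numpy 2.4.6, pandas 2.3.3, scipy 1.17.1 and matplotlib 3.10.9 were used.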

Additional observations from a re-analysis of the deposited data

How the results depend on the processing

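No paired analysis was possible because each group has 1 library, and no library could be left out. Of 137 recomputed summary values, 123 stayed within the interval of the reported value, or within 1.5 times a reported count, and 14 moved further. For a median, that interval is a spread over the genes of its list, which are not replicates. For receptors it ran from -0.17 to 0.08 and so held a change of sign. Staying within such an interval is therefore a weak check. The number of collagen genes at least 1.5-fold higher was 1 with a pseudocount of 0.1 FPKM and 1 with estimated fragments not scaled for depth, against 0 as reported. Without depth scaling the collagen median was 0.20, the fibrillar ratio 1.16, the basement membrane ratio 1.12 and that of the other collagens 1.16. The list medians were then 0.15 for hydroxylation and glycosylation, 0.083 for folding and export, 0.20 for crosslinking, 0.15 for receptors, 0.10 for degradation and 0.19 for fibril partners, while the median of all genes was 0.11. Some small list medians changed sign. Without depth scaling, folding and export, propeptide cleavage (0.05), degradation and TGF-beta signalling (0.02) turned from negative to positive. Receptors were at -0.07 with the most abundant transcript, and folding and export at 0.0024 after GC subtraction. Degradation, at -0.00, turned to 0.0044 with no floor, 0.0097 with a floor of 5 FPKM and 0.0016 with a median ratio set to 1. The collagen median stayed above 0 under every alternative run. Ratios within counting error of 1 crossed it in COL7A1 (1.03), COL13A1 (1.02) and COL27A1 (1.05) without depth scaling and in COL4A1 (0.986) after GC subtraction. The shifts without depth scaling follow from the deeper treated library by construction. The authors' bounds put 2 collagen genes apart in the treated-higher direction, against 8 by counting intervals. The fibrillar ratio was 1.04 without COL1A1, the basement membrane ratio 1.01 without COL4A2 and that of the other collagens 1.08 without COL6A2. Of 80 single-gene values, 9 moved. With its most abundant transcript alone, COL12A1 had a ratio of 1.23. One library per condition, unnamed compounds and an unknown treatment time limit every comparison.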
